A study of Mus musculus with 8 samples.

Results

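The 10 genes described here code for heterogeneous nuclear ribonucleoproteins (hnRNPs): Hnrnpa1, Hnrnpa2b1, Hnrnpc, Hnrnpd, Hnrnpab, Hnrnpk, Hnrnpf, Hnrnpl, Hnrnpm and Hnrnpu. They were taken by name from the 21938 protein-coding genes of GENCODE release M21 on mm10. A gene's tag clusters were those on its own strand whose dominant TSS, the most used start base of a cluster, lay between 500 bp upstream of the gene's annotated 5′ end and its 3′ end. By this rule 133 of the 32857 tag clusters of the series belonged to these genes in E14, 133 of 33005 in A1 and 134 of 32870 in C7.

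CAGE-seq captures the 7-methylguanosine cap of RNA and reads the bases next to it, so that a tag cluster, a run of nearby tag 5′ ends on 1 strand, marks where capped RNA begins. It was applied to nuclear RNA from wild-type E14 mouse embryonic stem cells (3 libraries) and from 2 clones of E14 cells with double PWWP2A/B knockout (DKO), A1 (2 libraries) and C7 (3 libraries), all grown with serum and LIF, a cytokine that keeps them undifferentiated. Libraries of a line were merged before clusters were called, and every cluster is listed with a score of 0. The clusters analysed here therefore give 1 set of positions per line, with no level of transcription and no spread between replicates, and no test between lines could be made from them. Each knockout line is 1 clone, so an effect of the deletion and a property of the clone cannot be told apart.

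Of 8 stem cell markers, 7 had a cluster within 500 bp of their gene start in every line (Pou5f1, Nanog, Sox2, Klf4, Zfp42, Tdgf1 and Dppa5a), while Esrrb had none there and 13, 12 and 13 clusters elsewhere in E14, A1 and C7. Of 6 markers of other cell types, 5 had no cluster in any line, Alb, Myh6, Gata1 and Ins2 among them, and Neurod1 had 2 in each. Pwwp2a kept 1 gene-start cluster in all 3 lines and Pwwp2b had none in any. The positions do not show whether the knocked-out genes make protein, so they do not check the deletion.

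hnRNPs are abundant nuclear proteins that coat nascent RNA and act in splicing, export, stability and translation of mRNA. Most bind RNA through RNA recognition motifs, and hnRNP K binds through KH domains. Many of their genes are regulated through their own splicing, and their annotation holds retained-intron and nonsense-mediated-decay transcripts that start inside the gene. A canonical start of a polymerase II transcript has a pyrimidine at the base before it, called −1, and a purine at the first transcribed base, called +1.

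All 10 genes had a cluster close to a RefSeq gene start. Of the 14 RefSeq promoter windows of these genes, each had a dominant TSS of E14 within 66 bp of the RefSeq gene start, and together they used 13 different clusters. These clusters had a median interquantile width of 33 bp in E14 (range 4 to 64), the interquantile width being the span between quantiles 0.1 and 0.9 of the signal in a cluster. Of the 13, 10 began with a pyrimidine-purine step. The sequences below show 1 such start for each of 9 genes, so that their first bases can be compared. They hold 15 bases on each side of the start point, on mm10 and from RefSeq (GRCm38.p6) or GENCODE M21 transcripts. Capitals mark the bases −1 and +1.
Hnrnpa1 (plus strand, chr15:103240439-103240468): ttcgttatcgtattCCtttctgctctttga
Hnrnpa2b1 (minus strand, chr6:51469831-51469860): ctcggctccagcggCAgtagcagcggcgcc
Hnrnpc (minus strand, chr14:52103985-52104014): ctcgggggccatttTGtgaggagacggaga
Hnrnpd (minus strand, chr5:99978929-99978958): acgcgccgttcttcCGtcggccattttagg
Hnrnpab (minus strand, chr11:51606833-51606862): cgagttggcattgtCAggcggtggcaccgc
Hnrnpf (plus strand, chr6:117900302-117900331): gtgcttctgctgagGAagtggaggcaggtg
Hnrnpl (plus strand, chr7:28810924-28810953): tgctgccccgggcgGAgaagcggcgtcggc
Hnrnpm (minus strand, chr17:33685378-33685407): cctcacacaaagccCAgacgcggagaaaat
Hnrnpu (minus strand, chr1:178337774-178337803): cggcgccgcccctgCGagaggacgttgcgt

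The Hnrnpa1 start differed from the others in this set by its CC step. Its first base was a C followed by pyrimidines, the form of a terminal oligopyrimidine (TOP) start, which is best known from genes of the translation machinery. By the rule of a C followed by at least 4 pyrimidines, it was the 1 such start among 58 promoter-class clusters of the 10 genes with bases (1.72%), against 618 of 16496 (3.75%) in the series. Hnrnpf and Hnrnpl began with a GA step. The Hnrnpl start lay in coding sequence, 49 bp downstream of the RefSeq gene start, so it is only the cluster nearest to that start. Within the RefSeq windows of 250 bases before to 50 after the gene start, and on both strands, CCAAT was found in 9 of the 14 windows, at 7 of the 10 genes, and in 37.4% of all 32851 promoter windows. The GC box GGGCGG was found in 8 of the 14, at 6 genes, and in 35.7% of all windows. TATAAA was found in 2 of the 14 (14.3%), at Hnrnpab and Hnrnpm, and in 13.6% of all windows.

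At Hnrnpk and Hnrnpm the first base of the GENCODE gene was not the start that these cells used. Hnrnpk, a KH-domain protein that binds C-rich sequences, had no cluster within 500 bp of that base in any line. Its promoter clusters lay between 827 and 1791 bp downstream on chromosome 13, with E14 interquantile widths of 18 to 55 bp and the same dominant TSS in all 3 lines. Each was within 18 bp of the start of an annotated coding transcript. Hnrnpm, a splicing regulator, had a single promoter cluster, 1468 bp downstream at 33685392 on chromosome 17, again with the same dominant TSS in each line. Hnrnpf, which binds runs of G, had 4 starts in its long 5′ region at −7, 6464, 16676 and 16992 bp. Another cluster at 7492 bp was classed as intronic, being 967 bp from the nearest GENCODE start, but lay 12 bp from a RefSeq start and was as wide as a promoter (44, 44 and 43 bp in E14, A1 and C7).

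**Figure D1:**
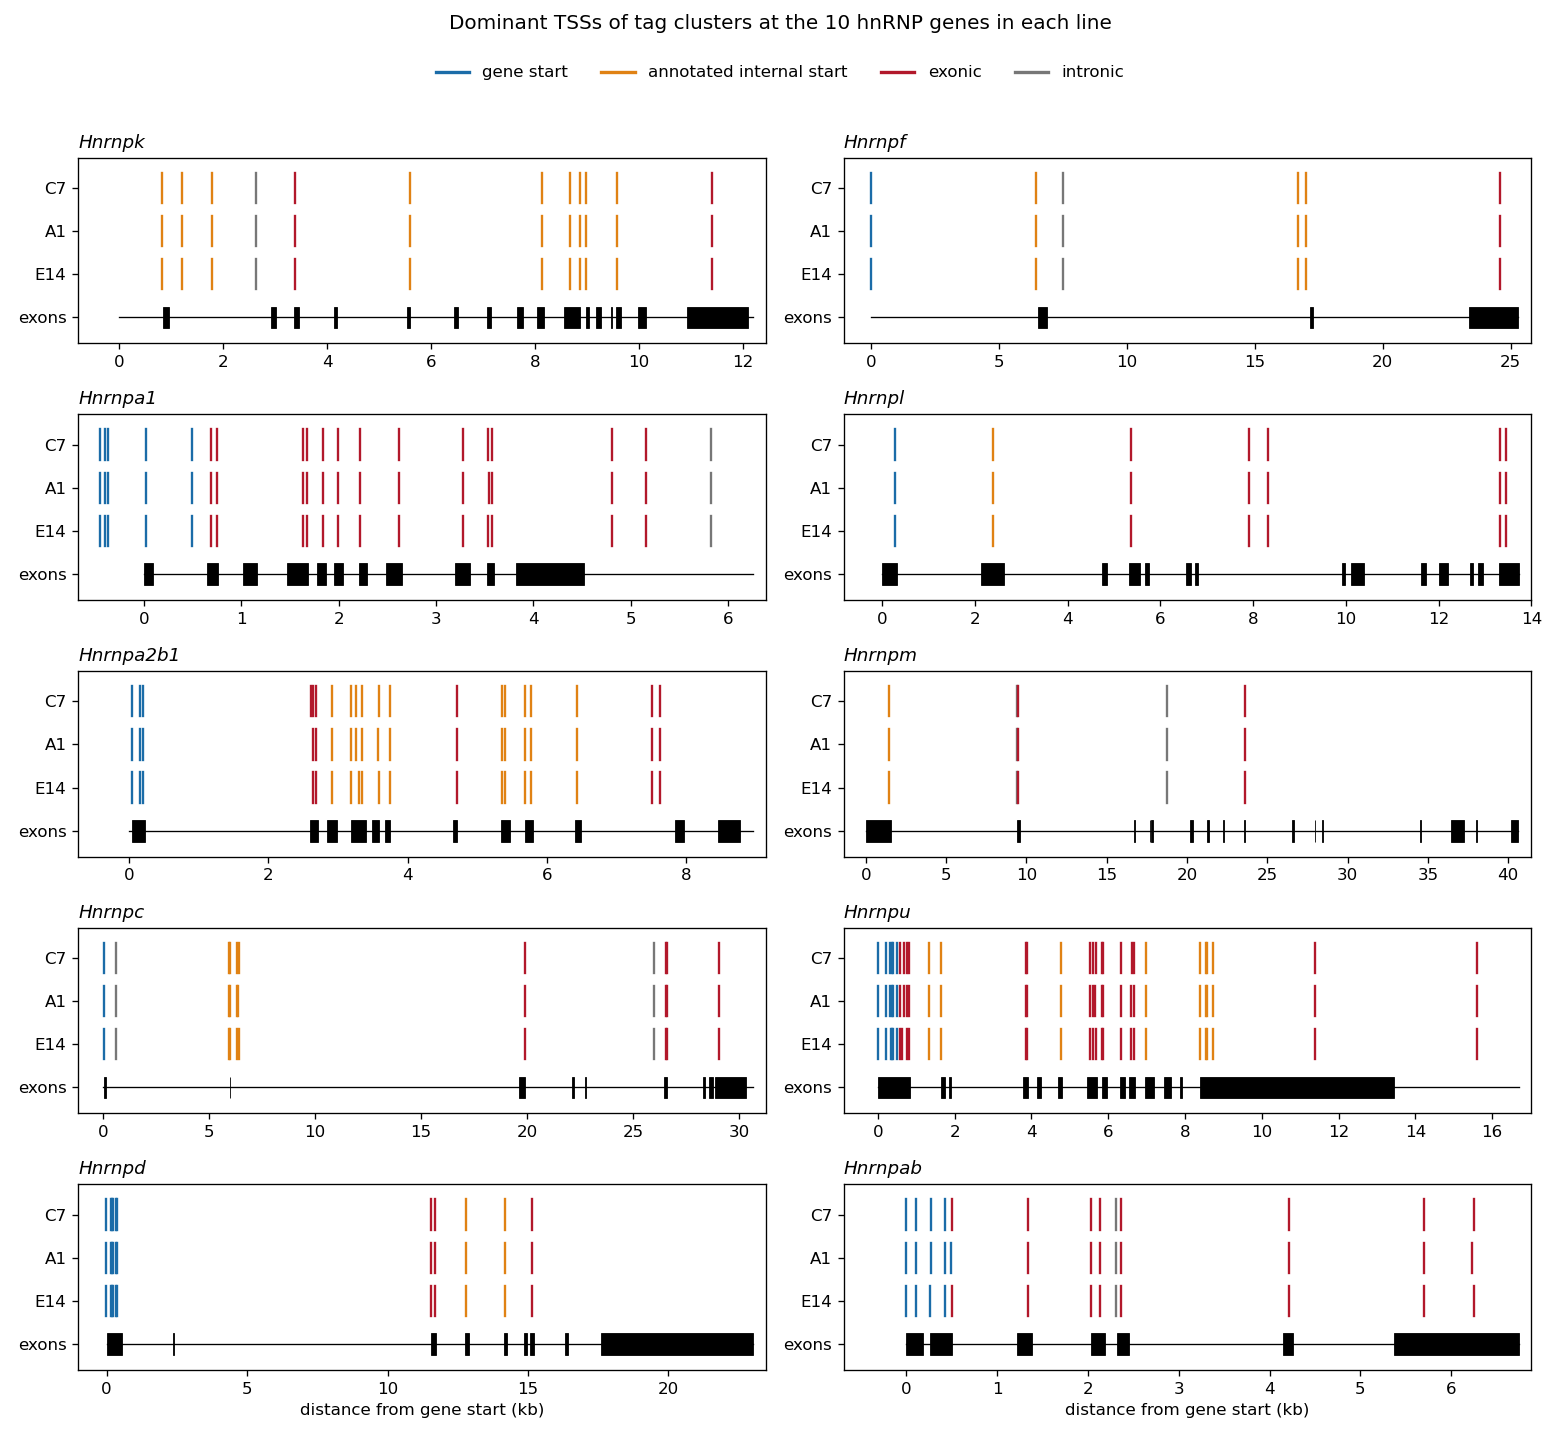
Position of the dominant TSS of each tag cluster (vertical ticks) along each of the 10 hnRNP genes, in kb from the annotated gene start, in E14, A1 and C7; black boxes are the exons of the main coding transcript, and exonic ticks outside them lie in exons of other transcripts. Ticks stand at nearly the same places in the 3 lines, and they run along the exons of Hnrnpa1, Hnrnpa2b1, Hnrnpu and Hnrnpab.

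Gene starts held the smaller part of the clusters. In E14, 27 of the 133 clusters lay within 500 bp of the gene start, 39 within 500 bp of another annotated transcript start of the gene, 59 in exons outside these windows and 8 in introns. The exonic share was 44.4% (95% Wilson interval 36.2% to 52.8%), against 16.4% (15.9% to 16.8%) of the 26050 clusters at all protein-coding genes. The gene-start share was 20.3% against 53.9%, and the share at internal starts 29.3% against 17.0%. These shares depend on the window. With 100 bp the exonic share was 62.4% against 24.5%, the gene-start share 5.26% against 36.5% and the share at internal starts 21.8% against 22.2%. With 1000 bp the same shares were 23.3% against 14.2%, 27.1% against 58.5% and 45.9% against 15.6%. The intervals cover counting error only. The classes held 28, 39, 58 and 8 clusters in A1 and 27, 39, 60 and 8 in C7. Counted without regard to class, 77 of the 134 clusters joined over the lines lay, by dominant TSS, within a coding sequence, 23 in 5′ UTRs, 11 in 3′ UTRs, 5 in noncoding exons, 13 in introns and 5 upstream of the gene. Levels of transcription were not measured here, and their part in the number of clusters was not tested.

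Every one of the 10 genes had at least 1 exonic cluster, where 13.3% of the 11058 protein-coding genes with a promoter cluster in E14 did. With a window of 1000 bp 9 of the 10 had one, Hnrnpd being the exception, against 12.1% of genes. Hnrnpu had 16 and Hnrnpa1 13, and 0.552% of those genes had at least 10. With windows of 100 and 1000 bp around annotated starts in place of 500 bp, Hnrnpu had 27 and 2 and Hnrnpa1 13 and 11, so the order of the pair depends on the window. These 2 genes held 29 of the 59 exonic clusters (49.2%). Hnrnpab followed with 8, Hnrnpa2b1 and Hnrnpl with 5 each, Hnrnpc with 4, Hnrnpd with 3, Hnrnpk and Hnrnpm with 2 each and Hnrnpf with 1. Per kb of exon the order changed, with 4.12 exonic clusters at Hnrnpa1, 2.88 at Hnrnpab and 1.38 at Hnrnpu, and from 0.251 (Hnrnpm) to 0.926 (Hnrnpc) at the other 7 genes. Over the 10 genes this came to 0.996 per kb, against 0.0682 per kb over the 11058 genes. At Hnrnpk only 35.5% of the exon bases lay outside the windows around annotated starts, and at Hnrnpa1 96.9%, so the annotation sets how many clusters can be called exonic.

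**Figure D2:**
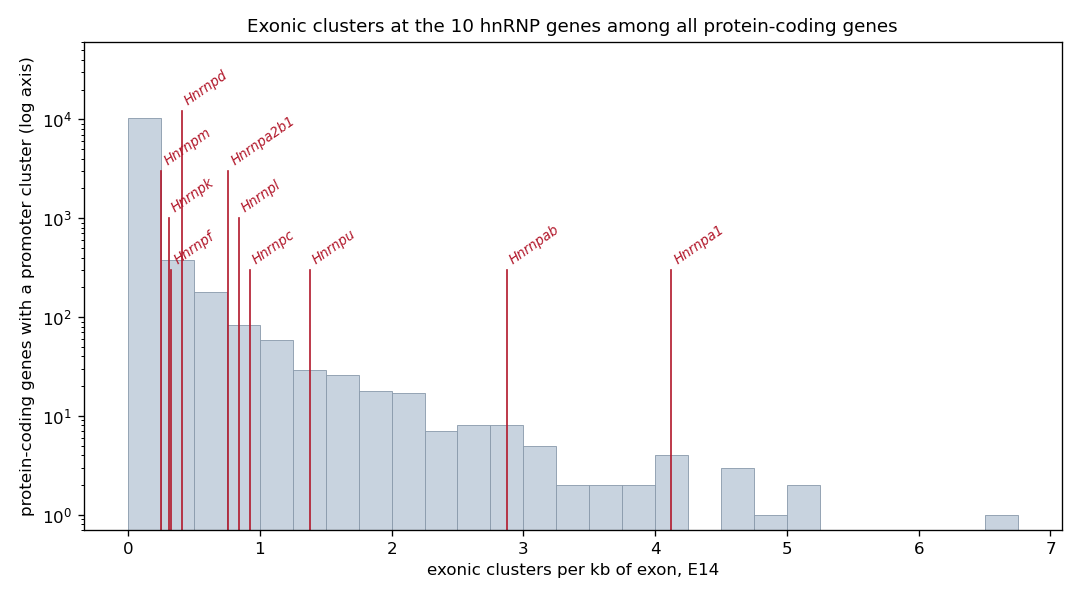
Exonic clusters per kb of exon in E14 (x axis) against the number of protein-coding genes with a promoter cluster (y axis, log scale), in bins of 0.25 per kb, with a red line for each hnRNP gene. Most genes are in the lowest bin, all 10 hnRNP genes lie above it, and Hnrnpa1 at 4.12 and Hnrnpab at 2.88 lie farthest to the right.

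Exonic clusters were less dense in related lists taken as a whole. The 24 other hnRNP genes had 29 exonic clusters in E14 at 13 genes, 0.180 per kb of exon. Hnrnpa3 had 5 of them and Syncrip 4. The 11 SR protein genes, whose products also steer splicing, had 26 at 7 genes, 0.493 per kb. They were led by Srsf5 with 6 and Srsf10 and Srsf11 with 5 each (Srsf3 also had 5). As a share of all E14 clusters, exonic ones were 26 of 61 at the SR protein genes, near the 59 of 133 at the 10 genes. At the 24 other hnRNP genes they were 29 of 117. Of these lists, Pcbp1 with 1.64 and Srsf5 with 1.5 exonic clusters per kb of exon were above all but Hnrnpa1 and Hnrnpab of the 10 genes, Pcbp1 being named after its value was seen. Srsf12 had no cluster of any class in any line. Pcbp2, which codes for a KH-domain protein related to hnRNP K, was the 1 gene of these lists with a cluster in both clones and not in E14, a 1-bp exonic cluster in coding sequence at 102498517 on chromosome 15.

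Hnrnpa1 and Hnrnpa2b1, whose products are core proteins of hnRNP particles and repress the use of splice sites, carried clusters in exon after exon. At Hnrnpa1, 9 of the 11 exons of the main coding transcript held a dominant TSS, and 11 of the 13 exonic clusters lay in coding sequence, in exons 2 and 4 to 10. Interquantile widths at Hnrnpa1 reached 78, 78 and 57 bp (E14, A1, C7) in exon 6 and 44 bp in every line in exon 7, wider than the 9, 24 and 7 bp of the gene's own promoter cluster. At Hnrnpa2b1, 10 of 12 exons held a dominant TSS and 15 of the 20 joined clusters were in coding sequence. Of these, 11 were classed as internal starts, 9 of them with the start of a retained-intron transcript as the nearest one.

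Hnrnpu, which codes for a large nuclear protein that binds chromatin-associated RNA, had 30 clusters in each line, the most of the 10 genes. Its first exon alone held 10 dominant TSSs, the first of them the promoter start 9 bp into the gene. The cluster of the 10 genes with the largest interquantile width, 491 bp into Hnrnpu and in coding sequence, measured 109 bp in E14 and 101 bp in both clones. Of its 16 exonic clusters, 14 were in coding sequence, in exons 1, 4 and 7 to 10.

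Hnrnpab and Hnrnpd code for related proteins, hnRNP D being known for binding AU-rich elements of unstable mRNAs. Each of the 7 exons of the main coding transcript of Hnrnpab held a dominant TSS, and most of its exonic clusters were only 2 bp wide, the exceptions being 4 bp at 501 bp and 18 bp at 6249 bp in E14. Hnrnpd had 5 of its 11 clusters inside the first exon and 3 exonic clusters further down. Hnrnpc, a core protein that binds U-rich tracts, had 1 gene-start cluster, 4 clusters at internal starts in 5′ UTRs, 5963 to 6401 bp into the gene, and 4 exonic clusters. Hnrnpl, which binds CA-rich RNA, had 5 exonic clusters, 2 of them in coding sequence, 2 in noncoding exons and 1 in the 3′ UTR.

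The bases at exonic starts differed from those at the gene starts of all genes. Of the 59 exonic E14 starts, 1 had a pyrimidine-purine step (1.69%, 95% Wilson interval 0.30% to 9.0%), against 9.18% of exonic starts at all protein-coding genes and 80.3% of their gene-start clusters. G stood at −1 in 50 of the 59 (84.7%, 73.5% to 91.8%), against 73.6% of all exonic and 9.07% of all gene-start clusters. GG stood at −2 and −1 in 43 of 56 with those bases (76.8%, 64.2% to 85.9%), against 64.6% and 6.61%. The gene-start clusters of the 10 genes lay between these values, since of the 22 with bases 7 had the pyrimidine-purine step (31.8%, 16.4% to 52.7%), 12 had G at −1 and 11 had GG. The values of all exonic starts lay just inside the lower ends of the intervals for G and GG, and just above the interval for the pyrimidine-purine step.

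Clusters near annotated internal starts were of both kinds. Of 39, 13 lay within 20 bp of the annotated start. Among these 7 of 13 had a pyrimidine-purine step and 4 had G at −1. Of the 26 farther away, none of the 24 with bases had a pyrimidine-purine step and 20 had G at −1. Split by the type of the nearest transcript, 7 of 14 next to a protein-coding start and 0 of 23 next to a retained-intron or nonsense-mediated-decay start had the step. In both promoter classes together, 9 of the 12 clusters nearest to a RefSeq gene start had the step and 5 of the other 47 with bases did.

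Several starts inside exons fell at like places in related genes. The 5 sequences that follow are shown because their starts lay at the same short word, in a stretch that codes for part of an RNA recognition motif. Capitals again mark −1 and +1.
Hnrnpa1, 1632 bp from the gene start (chr15:103242049-103242078): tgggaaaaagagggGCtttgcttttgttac
Hnrnpa2b1, 3350 bp (chr6:51466530-51466559): tggaaagaaaagagGCtttggctttgttac
Hnrnpd, 11677 bp (chr5:99967247-99967276): agggcgatcaagggGTtttggctttgtgct
Hnrnpab, 1345 bp (chr11:51605488-51605517): ggacgatcaagaggGTttgggtttattctc
Hnrnpab, 2366 bp (chr11:51604467-51604496): gaacaaaagacgggGTtttgtttttattac

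Each of the 5 dominant TSSs was within 3 bp of the third base of GGNTTNG read in frame. This word occurred at 28 places in the main coding sequences of the 10 genes, and 7 of them (25%) had a dominant TSS of E14 at that distance, the other ones being Hnrnpa1 at 1991 and 2216 bp. Over all 11011 genes searched it occurred at 7217 places, of which 85 (1.18%) had such a start. Of the 2 related lists, Hnrnpa3, Pcbp2, Tardbp, Srsf5 and Srsf10 each had 1, and they are named here after their values were seen. The other 21 places had no such start, 5 of them in Hnrnpa2b1, 4 each in Hnrnpa1 and Hnrnpm, 3 in Hnrnpd, 2 in Hnrnpf and 1 each in Hnrnpc, Hnrnpk and Hnrnpl. Among the 10 genes, Hnrnpab alone had a start at each of its places, which were 2. The word was written from these sites after they were seen, so the comparison is a description.

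Hnrnpa1 and Hnrnpa2b1 shared a further pair of places in exon 2 of their main coding transcripts. The starts at 693 and 746 bp of Hnrnpa1 and at 2637 and 2690 bp of Hnrnpa2b1 were in matching sequence and 53 bp apart in each gene.
Hnrnpa1, 693 bp (chr15:103241110-103241139): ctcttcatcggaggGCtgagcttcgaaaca
Hnrnpa2b1, 2637 bp (chr6:51467243-51467272): gctctttattggtgGCttaagctttgaaac
Hnrnpa1, 746 bp (chr15:103241163-103241192): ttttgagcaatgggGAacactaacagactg
Hnrnpa2b1, 2690 bp (chr6:51467190-51467219): actatgagcaatggGGaaagctcacagact
Identical sequence elsewhere also bears on Hnrnpa1. For 7 of its exonic starts, those at 693, 746 and 1632 bp among them, and for 1 exonic and 1 internal start of Hnrnpk, the first 75 bases from the dominant TSS were found unchanged in an annotated pseudogene elsewhere, and reads of that length from the 2 places cannot be told apart.

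Between the lines, the presence of clusters hardly varied. Of the 134 joined clusters, 133 were in all 3 lines, and each of the 133 E14 clusters (100%) overlapped one in both clones, where 98.8% of all E14 clusters of the series did. No cluster was in both clones and not in E14 (series 0.448% of A1 clusters), none was in E14 alone (0.231%) and 1 was in C7 alone (0.326%). This last one was 1 bp wide, in coding sequence of Hnrnpa2b1 at 51467285 on chromosome 6, 28 bp upstream of a cluster present in all lines. Start and end were the same in all 3 lines for 130 of the 133, against 98.6% in the series. How far the calling of clusters itself made bounds and presence alike between lines was not tested. Shared presence is therefore not read as a result about the deletion. The differences in the number of exonic clusters between lines came from that cluster and from 1 Hnrnpab cluster whose dominant TSS lay 501 bp from the gene start in E14 and C7 and 498 bp in A1, across the 500 bp limit.

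The dominant TSS was at another base than in E14 for 30 of the 133 clusters in A1 (22.6%, 16.3% to 30.4%, series 23.8%) and for 22 in C7 (16.5%, 11.2% to 23.8%, series 21.1%). It was at the same base in all lines for 92 (69.2%, series 66.3%), and had moved to the same new base in both clones for 7 (5.26%, series 8.48%). These shares lay near those of the series and do not set these genes apart. Moves of 1 bp were found for 15 clusters in A1 (11.3%, 7.0% to 17.8%, series 5.96%). In C7 there were 11 (8.27%, 4.68% to 14.2%, series 5.1%). For moves of 1 bp, the series share lay below the interval in A1 and inside it in C7. By class, the A1 shares were 7.41% at gene starts (series 2.35%) and 10.3% at internal starts (series 5.27%). They were 10.2% in exons (series 12.7%) and 37.5% in introns (series 16.1%). Within each class the series share lay inside the interval, so the difference over all classes does not set these genes apart. The 13 clusters nearest to RefSeq gene starts moved in 1 case in each clone, the Hnrnpf start at 6464 bp, by 2 bp in both.

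Among the 7 moves shared by the clones, 4 were longer than 2 bp. At Hnrnpu the dominant TSS of an exonic cluster stood at 178337167 on chromosome 1 in E14 and 56 bp downstream at 178337111 in both clones, and that of a cluster 329 bp into the gene moved 16 bp upstream. At Hnrnpa2b1 the dominant TSS of a cluster in coding sequence moved 34 bp upstream, from 51466598 to 51466632 on chromosome 6. At Hnrnpab the start 259 bp into the gene moved 13 bp downstream. In these 4 clusters the bounds did not differ between lines.

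**Figure D3:**
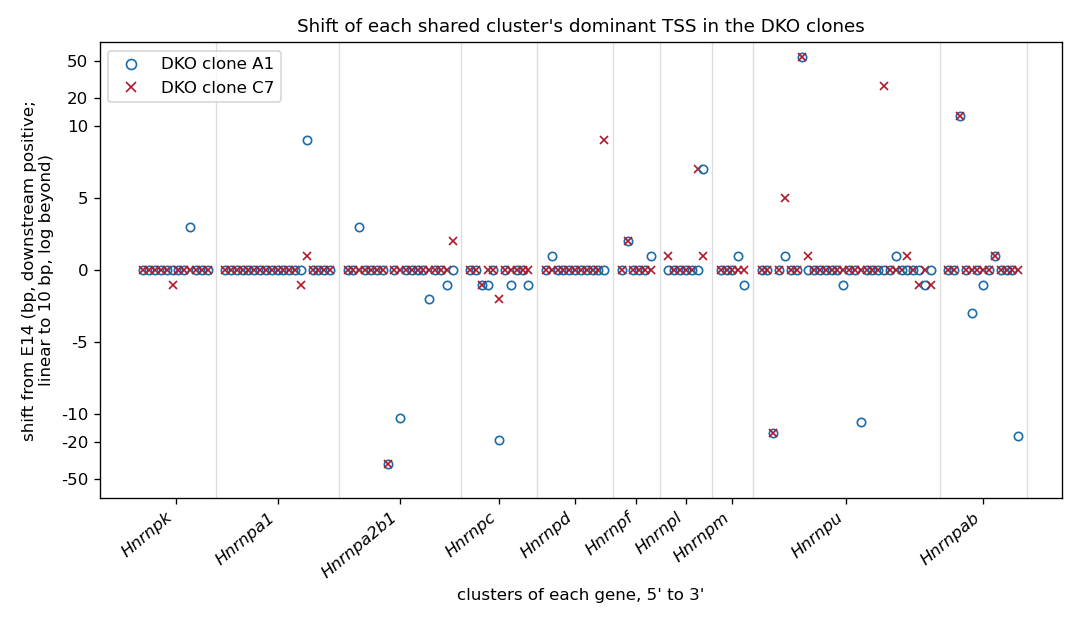
Shift of the dominant TSS from E14 in DKO clone A1 (circles) and clone C7 (crosses), in bp with downstream positive (y axis linear to 10 bp and logarithmic beyond), for each of the 133 shared clusters in 5′ to 3′ order within each gene (x axis). Most points lie at 0, and circle and cross coincide away from 0 at 7 clusters, the farthest being the shift of 56 bp at Hnrnpu.

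Interquantile widths in E14 had medians of 10 bp at gene starts, 9 bp at internal starts, 4 bp in exons and 2 bp in introns, against 23, 15, 3 and 3 bp at all protein-coding genes. With a window of 100 bp the order at gene starts turned, the 7 clusters left there having medians of 33, 34 and 29 bp in E14, A1 and C7 against 26, 27 and 27 bp at all genes, and the exonic median in E14 was 4 bp against 6 bp. With 500 bp the medians in A1 were 13, 7, 7 and 2 bp and in C7 14, 9, 3 and 2 bp. In the 2 promoter classes together, the 12 clusters nearest to RefSeq starts had a median of 31.5 bp and the other 54 a median of 6.5 bp.

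The interquantile width was the same in all 3 lines for 82 of the 133 clusters (61.7%), and no share of the series is given here beside it. It was at least 5 bp larger in both clones for 6 (4.51%, series 3.85%) and at least 5 bp smaller in both for 1 (0.752%, series 1.38%). Of the 6, 3 were in the first exon of Hnrnpd. The cluster 139 bp into Hnrnpd measured 2 bp in E14 and 12 bp in both clones, the one at 188 bp 1 bp in E14 and 21 bp in both clones, and the one at 324 bp 16 bp in E14, 41 bp in A1 and 35 bp in C7. In the same exon the clusters at 238 and 368 bp measured 7 and 31 bp in every line, and the Hnrnpd promoter cluster itself 33, 34 and 29 bp. Of the others, 2 were at Hnrnpu. They were an exonic one at 5869 bp (4 bp in E14, 20 bp in both clones) and an internal one at 8400 bp (1 bp, then 12 bp in both). The last was the Hnrnpl cluster nearest to the RefSeq start, at 2398 bp (43 bp, then 48 bp in both). The narrower one was the wide Hnrnpu cluster at 491 bp.

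**Figure D4:**
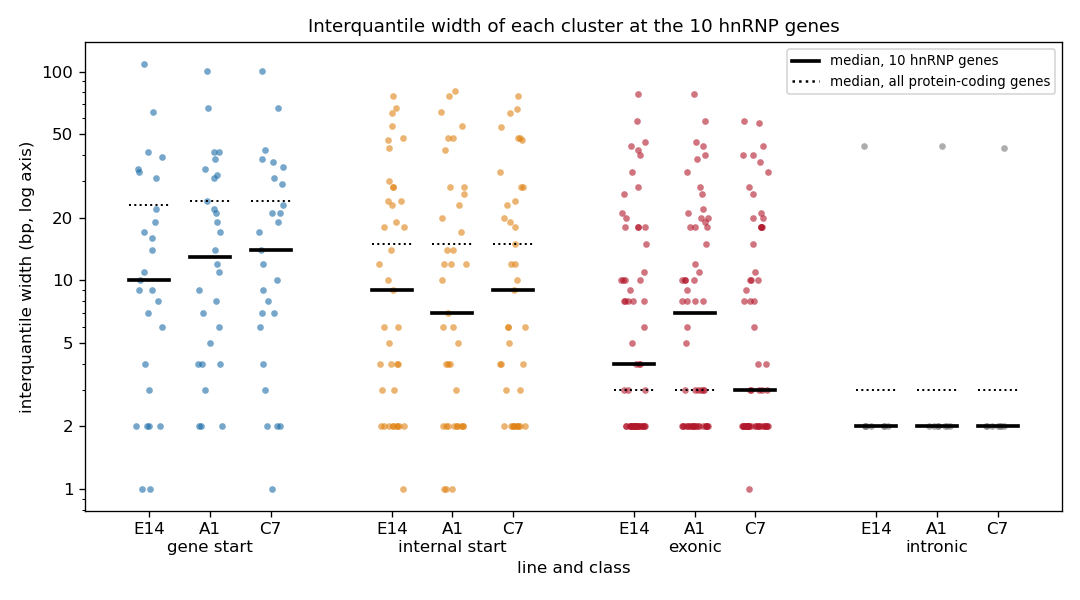
Interquantile width in bp (y axis, log scale) of each cluster at the 10 hnRNP genes by class and line (points), with the median of these genes (solid bar) and of all protein-coding genes (dotted bar). Gene-start clusters of the hnRNP genes had medians of 10 to 14 bp, under the 23 to 24 bp of all genes (with a 100 bp window, 29 to 34 bp and above the 26 to 27 bp of all genes), and exonic clusters ranged from 1 to 78 bp.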

How the data were processed

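CAGE-seq libraries of nuclear RNA (3 E14, 2 A1, 3 C7) were prepared without PCR. The authors mapped reads to mm10 (tools in the submitters' notes are STAR 2.4.2a, SAMtools 1.3 and bedtools 2.17.0), discarded reads with several alignments, pooled all libraries of a line and ran CAGEr to obtain tag clusters. The deposited clusters used here hold positions, namely cluster bounds, dominant TSS and the interquantile block (quantiles 0.1 to 0.9), and every score is 0. Signal tracks were not analysed here. The minimum signal for a cluster and a per-library depth are not given in the deposited clusters. Unique alignment can lose or misplace reads of genes with identical pseudogenes.

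Clusters were classed with GENCODE M21 by dominant TSS, in the order gene start, internal start (both within 500 bp), exonic, intronic. Same-strand clusters sharing 1 bp or more counted as present in both lines. Intervals of shares are 95% Wilson intervals, and no p-value was calculated. Python 3.11.15, NumPy 2.4.6, SciPy 1.17.1 and Matplotlib 3.10.9 were used. Class and overlap calls were right for 1000 of 1000 simulated positions and 1000 of 1000 simulated clusters. Bases came from RefSeq promoter windows or, where a stretch lay in 1 exon, GENCODE transcripts, and covered 119 of the 133 E14 clusters (89.5%) at −1 and +1.

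The 10 genes and all lists were chosen with earlier results of these data known. All 10 are named. Of 24 other hnRNP genes and 11 SR protein genes, those named are the 3 with the most exonic clusters in E14 per list, those with no cluster, and those with a cluster in both clones and not in E14 or in E14 alone. Some items that these rules select are not reported here. Alternatives were windows of 100 and 1000 bp, starts of any gene, a minimum interquantile width (3 bp), protein-coding transcripts alone, placement by cluster middle, other overlap rules, each clone alone, larger moves, whole cluster width and the CA step. Density per kb of exon outside the windows, and the windows for the other lists and for all protein-coding genes, were added after seeing the data.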

Additional observations from a re-analysis of the deposited data

Results flagged for a closer look

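Clusters on the strand opposite to the 10 hnRNP genes and between their ends were left out of the comparisons, and they numbered 39 in E14, 39 in A1 and 39 in C7. This came to 0.212 per kb of gene in each line, against 0.00539 per kb in E14 over the 11058 protein-coding genes with a promoter cluster, and 9 of the 10 genes had at least 1, against 15.7% of those genes. Hnrnpa2b1 held 12 of them in each line, Hnrnpu 7, Hnrnpd 5, Hnrnpk 4, Hnrnpa1 and Hnrnpab 3 each, Hnrnpf and Hnrnpm 2 each, Hnrnpl 1 and Hnrnpc 0. In every line 9 of the 39 were no more than 500 bp from a transcript start annotated on their own strand. Of these, 4 were at Hnrnpk, 3 at Hnrnpd and 1 each at Hnrnpf and Hnrnpl. No such share over all genes is given here beside this count.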

How the results depend on the processing

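Values in E14, A1 and C7 follow each other in that order. With a window of 100 bp, 7, 7 and 7 clusters were at gene starts and 14, 14 and 13 in introns, and the median interquantile width at gene starts was 33, 34 and 29 bp, above that of all protein-coding genes, where with 500 bp it was below. With 1000 bp, 61, 61 and 62 were at internal starts, 31, 31 and 31 in exons (0.524 per kb in each line) and 5, 5 and 5 in introns. Exonic clusters at Hnrnpu numbered 27 with 100 bp and 2 with 1000 bp in every line, at Hnrnpa2b1 10, 10 and 11 with 100 bp and 1 with 1000 bp, at Hnrnpk 5, 4 and 5 with 100 bp, at Hnrnpab 11 in A1 with 100 bp, and with 1000 bp 1 at Hnrnpl and 0 at Hnrnpd in every line, by the construction of the windows. With protein-coding transcripts only, 19, 19 and 19 were at internal starts and 17, 19 and 17 in introns. Leaving out clusters with interquantile widths under 3 bp, 35, 37 and 33 were exonic (0.591, 0.625 and 0.557 per kb), 1, 1 and 1 intronic (44, 44 and 43 bp wide), the exonic median was 10, 12 and 15 bp, and 90.7% of E14 clusters were found in both clones. Per kb of exon outside the windows, the exonic density was 1.51, 1.49 and 1.54. The 24 other hnRNP genes had 49 exonic clusters in E14 with 100 bp. Comparing C7 alone with E14 added 1 cluster. Moves of at least 5 bp were found for 7.52% of clusters in A1 (4.1% to 13.3%, series 12.6%). The share in C7 was 6.02% (3.08% to 11.4%, series 11.2%). For at least 10 bp the shares were 6.02% in A1 (3.08% to 11.4%, series 8.27%) and 3.76% in C7 (1.62% to 8.5%, series 7.51%). Each of these series shares was higher but lay inside the interval. CA steps made up 13.6% at gene starts. Over all 10 genes or a list, 108 values stayed within 1.5 times the reported count or the 95% interval of the share or median. The gene-start median of 29 bp in C7 and the intronic widths of 43 and 44 bp were among them. So were medians that changed by more than 1.5 times but stayed inside a wide interval. With whole cluster width, the gene-start median in E14 went from 10 to 19 bp and the exonic median in C7 from 3 to 8 bp. With interquantile widths of at least 3 bp, the internal-start median in E14 went from 9 to 18 bp. The 38 other counts at single genes also stayed within 1.5 times. No paired analysis was possible because in the clusters used here the replicates of each line were merged, and for the same reason no replicate could be left out. The depth of each library is not in these positions, so a cluster absent from a line may lie under an unstated minimum.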
